A study of Mus musculus with 2 samples.

Results

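Transcripts of the contractile machinery of fast and developing skeletal muscle were examined in liver RNA of 1 SRSF2 knockout library and 1 wild-type library. The set holds 10 of the 26440 genes in the deposited tables: Acta1, Tnnt3, Tnni2, Tnnc2, Mylpf, Myl1, Myh8, Myh4, Atp2a1 and Ckm. They were picked by name as sarcomere and energy genes of skeletal muscle after earlier results on these libraries were known, among them that they were near 0 in wild-type liver. Their difference between the libraries is therefore a description and was not tested. SRSF2 is a serine/arginine-rich protein that takes part in splicing. The knockout group was labelled SRSF2-/- and described as liver-specific, and the wild-type group was labelled WT. Both livers came from BALB/c mice at day 11 after birth. The labels do not say how the deletion was made or confined to the liver, which part of the gene it removed, or how many animals gave each library.

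Skeletal muscle contracts when thick filaments of myosin pull on thin filaments of actin. Each myosin motor has a heavy chain and 2 kinds of light chain. On the thin filament, troponin C binds calcium, troponin I holds back the interaction with myosin, and troponin T anchors the complex to tropomyosin. Fast, slow and cardiac fibres use different genes for most of these proteins, and heavy chain genes change during development from embryonic and perinatal to adult forms. Hepatocytes are not known to build sarcomeres.

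Reads on listed transcripts totalled 22111605 for the knockout and 22407743 for the wild-type library. Levels are the authors' FPKM, which scales the fragments of a gene to its transcript length and to the size of the library. Intervals are 95% exact limits that cover counting error only. Reads of amplified libraries are not independent molecules, so these limits may be too narrow even for that error. With 1 library per genotype there is no replicate, and differences could not be set against the spread between animals. Srsf2 stood at 11.8 FPKM in the knockout and 27.9 FPKM in the wild-type library, and whether its remaining reads fall outside the deleted part cannot be seen from counts per transcript. Alb, the albumin of hepatocytes, stood at 25492 FPKM in the knockout and 50399 FPKM in the wild-type library. The libraries also differed in Xist, a transcript of female cells, at 0.0138 FPKM in the knockout and 27.4 FPKM in the wild-type library. They differed as well in transcripts of the exocrine pancreas, given below. Xist was chosen after its values were seen. Genotype, sex, animal, dissection and library cannot be told apart here.

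The members are set beside their promoters because a few of them differ widely in level although all were near 0 in wild-type liver. RefSeq promoters, from 250 bases before to 50 after the annotated start, were found for 8 members on build GRCm38.p6, a later build than the mm9 named in the submitters' processing notes. Tnnt3 and Tnni2 had no entry in that table. Below are the promoters of the member with the highest level (Acta1), the next one (Mylpf), and the neighbouring myosin genes with the widest contrast in level (Myh8 and Myh4), 5′ to 3′ on the gene's strand. Capitals mark matches to the E-box CANNTG, to TATAAA, to the MEF2 motif and to the CArG box of serum response factor, on either strand.
Acta1, chr8:123894726-123895025, minus strand: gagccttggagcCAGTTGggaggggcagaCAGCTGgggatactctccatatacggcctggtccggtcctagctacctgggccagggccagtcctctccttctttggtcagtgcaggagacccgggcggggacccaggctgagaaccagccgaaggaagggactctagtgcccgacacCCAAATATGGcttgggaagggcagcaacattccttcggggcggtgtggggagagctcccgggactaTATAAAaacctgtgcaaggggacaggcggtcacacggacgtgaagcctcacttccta
Mylpf, chr7:127211358-127211657, plus strand: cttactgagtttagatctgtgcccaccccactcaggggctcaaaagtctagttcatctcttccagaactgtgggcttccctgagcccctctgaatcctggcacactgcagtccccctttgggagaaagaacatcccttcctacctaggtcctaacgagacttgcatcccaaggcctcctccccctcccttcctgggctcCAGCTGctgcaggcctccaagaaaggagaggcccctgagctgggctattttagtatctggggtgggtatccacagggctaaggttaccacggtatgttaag
Myh8, chr11:67276874-67277173, plus strand: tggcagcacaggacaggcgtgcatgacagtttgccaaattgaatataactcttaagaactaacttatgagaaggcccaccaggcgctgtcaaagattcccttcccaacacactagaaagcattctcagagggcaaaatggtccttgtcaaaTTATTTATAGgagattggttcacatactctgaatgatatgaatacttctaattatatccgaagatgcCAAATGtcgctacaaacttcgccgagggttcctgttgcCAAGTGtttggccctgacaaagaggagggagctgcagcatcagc
Myh4, chr11:67237562-67237861, plus strand: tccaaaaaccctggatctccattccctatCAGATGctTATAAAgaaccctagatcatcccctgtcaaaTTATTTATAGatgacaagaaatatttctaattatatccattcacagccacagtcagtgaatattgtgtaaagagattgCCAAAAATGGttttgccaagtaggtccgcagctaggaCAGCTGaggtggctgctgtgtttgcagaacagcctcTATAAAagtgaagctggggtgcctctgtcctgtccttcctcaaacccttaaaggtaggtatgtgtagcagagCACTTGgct

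An E-box CANNTG, the core bound by the MyoD family of muscle regulators, lay in all 8 member promoters and in 72.3% of the 32851 promoters of the table. Its variant CAGCTG lay in 6 of the 8 (Acta1, Ckm, Mylpf, Myl1, Atp2a1 and Myh4) and in 16.3% of all promoters. TATAAA lay in 4 of 8 and in 13.6% of all, and CATTCC, the core bound by TEAD factors, in 3 of 8 and in 14.7% of all. The MEF2 motif lay in 2 (Myh4 and Myh8) and in 3.19% of all, each time overlapping a TATAAA match on the other strand. The CArG box lay in 2 (Acta1 and Myh4) and in 1.63% of all. CAGCTG is one form of CANNTG, so these 2 counts overlap. Matches describe letters in a short window of a later genome build and say nothing of whether a factor was bound there.

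Summed, the 10 members had 3830 reads in the knockout and 13 reads in the wild-type library, or 173 and 0.580 RPM (reads scaled to library size). The knockout value was 298 times the wild-type value, with an interval of 174 to 560. Summed FPKM was 96.9 in the knockout and 0.261 in the wild-type library. In the wild-type library 5 members had no read at all and the other 5 had between 1 and 6. In bulk RNA, fewer cells of a type and less RNA per cell cannot be told apart.

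**Figure D1:**
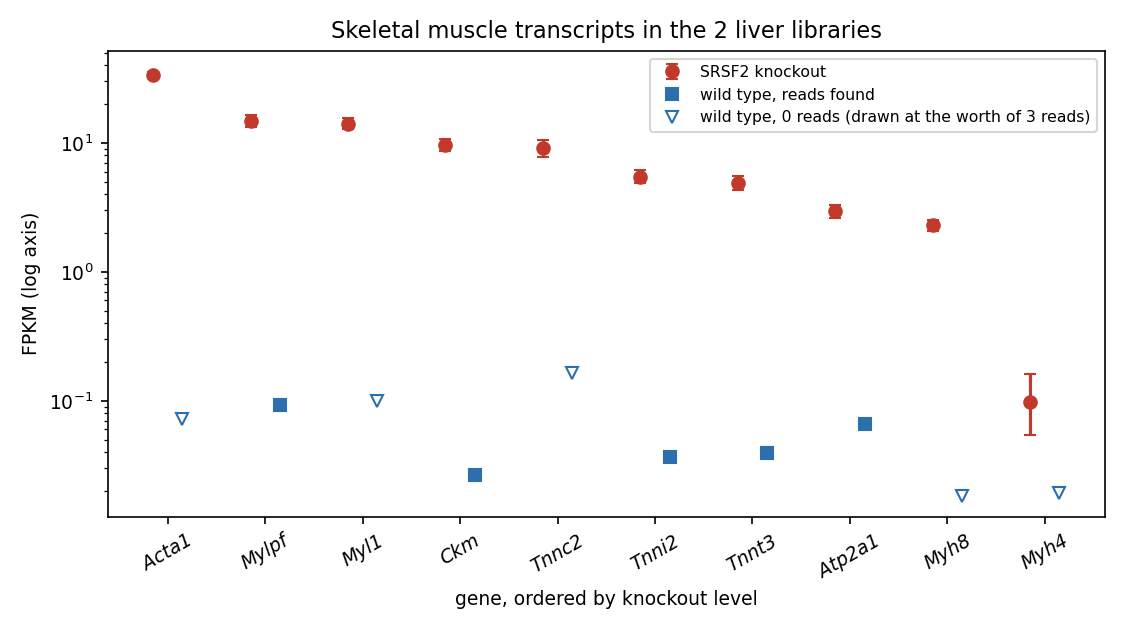
FPKM (log axis) of each member in the SRSF2 knockout library (circles, with 95% exact Poisson limits) and the wild-type library (squares, or open triangles at the worth of 3 reads where it had 0 reads). Knockout levels run from 33.7 FPKM for Acta1 to 0.0979 FPKM for Myh4, each above its wild-type value.

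On the thin filament, Acta1 encodes skeletal alpha-actin. It had 1387 reads (33.7 FPKM) in the knockout library and 0 reads in the wild-type library, 468-fold higher against a floor of 3 wild-type reads. The lower limit of the exact interval was 380. Acta1 held the 1663rd rank by FPKM among the knockout library's genes.

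The 3 subunits of fast troponin were each present in the knockout library. Tnnt3, fast troponin T, had 244 reads (4.87 FPKM) in the knockout and 2 reads (0.0395 FPKM) in the wild-type library, a ratio of 123 with an interval of 33.8 to 1025. Tnni2, fast troponin I, had 293 reads (5.48 FPKM) in the knockout and 2 reads (0.0370 FPKM) in the wild-type library, a ratio of 148 (40.7 to 1230). Tnnc2, fast troponin C, had 165 reads (9.08 FPKM) in the knockout and 0 reads in the wild-type library. It was 55.7-fold higher against the same floor, with an exact lower limit of 44.8. With so few wild-type reads the upper ends of these intervals are wide.

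On the thick filament, both fast light chains stood close together. Mylpf, the fast regulatory light chain, had 317 reads (14.8 FPKM) in the knockout and 2 reads (0.0922 FPKM) in the wild-type library, a ratio of 160 (44.04 to 1330). Myl1, the fast essential light chain, had 417 reads (14.1 FPKM) in the knockout and 0 reads in the wild-type library. It was 141-fold higher against the floor of 3 reads, with an exact lower limit of 114.

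The 2 myosin heavy chains were far apart. Myh8, the perinatal heavy chain, had 369 reads (2.29 FPKM) in the knockout and 0 reads in the wild-type library. It was 124-fold higher against the floor of 3 reads, with an exact lower limit of 101. Myh4, the IIb heavy chain of adult fast fibres, had 15 reads (0.0979 FPKM) in the knockout and 0 reads in the wild-type library. It was 5.06-fold higher against that floor, with an exact lower limit of 3.63. Within the knockout library Myh8 stood 23.4 times above Myh4 in FPKM. Myh4 was the one member under 1 FPKM in both libraries.

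Of the calcium and energy genes, Atp2a1 encodes SERCA1, the pump that returns calcium to the sarcoplasmic reticulum of fast fibres. It had 266 reads (2.95 FPKM) in the knockout and 6 reads (0.0657 FPKM) in the wild-type library, 44.9-fold higher (20.3 to 123). Ckm, the muscle creatine kinase that buffers ATP, had 357 reads (9.62 FPKM) in the knockout and 1 read (0.0266 FPKM) in the wild-type library, a ratio of 361 (64.4 to 14309). Atp2a1 held 6 of the 13 wild-type member reads, a share of 46.2% (19.2% to 74.9%), against 6.95% (6.16% to 7.80%) of the member reads in the knockout library. Acta1 held 36.2% (34.7% to 37.8%) of the knockout member reads and none of the wild-type ones, for which 13 reads allow a share of up to 24.7%.

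On the log2(FPKM + 1) scale, which understates differences of low genes, 9 members passed the filter of 1 FPKM in either library, and these 9 were at least 2-fold higher in the knockout. Of the 12477 genes that passed, 19.2% lay 2-fold or more above the wild-type value and 2.95% lay 2-fold or more below it. Members passed the filter through the knockout library alone and so had to be higher there, and nothing is read from their count. Their log2 ratios ran from 1.72 for Myh8 to 5.12 for Acta1 with a median of 3.33, beside a median of 0.55 over all genes that passed. After centring on that median, 5.67% of all genes passed that size upward and 6.66% downward, and the members ran from 1.17 to 4.56.

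**Figure D2:**
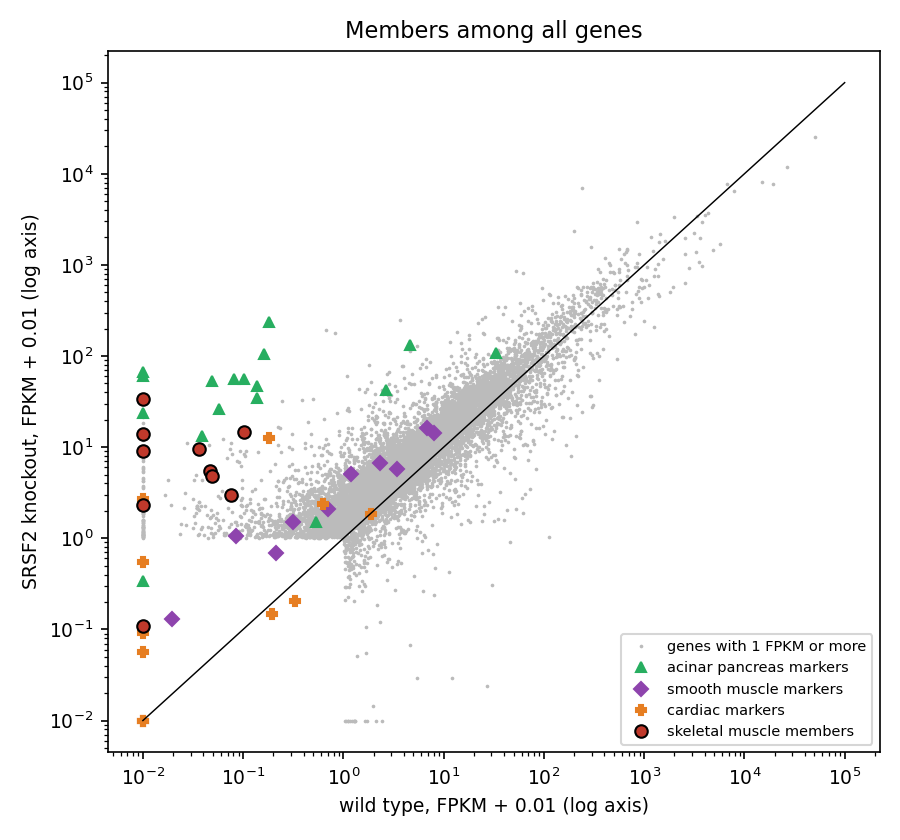
FPKM plus 0.01 of each gene in the SRSF2 knockout (vertical, log axis) and wild-type library (horizontal, log axis). Grey points are genes with at least 1 FPKM in either library, the line marks equal values, and coloured marks show the 10 members and the marker lists of acinar pancreas, smooth muscle and heart. The members, the pancreas markers and the smooth muscle markers lie above the line, as do 84.5% of the grey genes. Most smooth muscle markers lie within the grey cloud.

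The order of member levels in the knockout library was Acta1, Mylpf, Myl1, Ckm, Tnnc2, Tnni2, Tnnt3, Atp2a1, Myh8 and Myh4. Counting intervals overlapped between Mylpf and Myl1, between Ckm and Tnnc2, and between Tnni2 and Tnnt3, so the order within those pairs was not resolved at this depth. Acta1 held 34.8% of the summed member FPKM, the light chains Mylpf and Myl1 15.3% and 14.5%, and Myh8 2.37%.

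This order depends on the transcript length that the authors used. Reads and FPKM together imply a length, which over 13621 accessions was a median of 1.19 times the length of the GENCODE transcript linked to the accession. For 64.5% of them the ratio lay within 10% of that median. Tnni2 had a ratio of 3.30 and Tnnt3 a ratio of 2.25, and 1.75% and 4.93% of accessions reached those values. Ckm had a ratio of 0.612, since its linked transcript has 2742 bases. With the linked lengths in place of the authors', the knockout levels became 15.2 FPKM for Tnni2, 9.20 for Tnnt3, 8.95 for Tnnc2 and 4.94 for Ckm, and Tnni2 then stood beside Mylpf at 15.7. The FPKM ratio of a gene between the libraries does not involve the length, but log2(FPKM + 1) does. With linked lengths the log2 ratio became 3.88 for Tnni2 in place of 2.64, 3.25 for Tnnt3 in place of 2.50 and 2.55 for Ckm in place of 3.37, while the member median was 3.31.

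**Figure D3:**
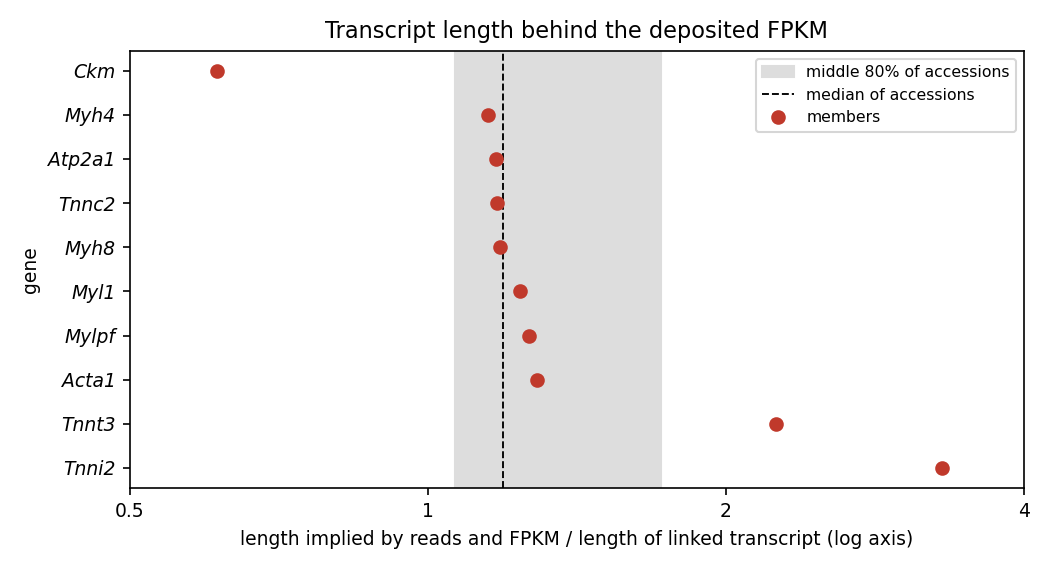
Length implied by the deposited reads and FPKM divided by the length of the linked GENCODE transcript (log axis), for each member (points), with the median (dashed) and the middle 80% (grey) of 13621 accessions. Tnni2 at 3.30 and Tnnt3 at 2.25 lie above the grey band and Ckm at 0.612 below it.

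Reads that fit several genes could be divided among them, and how they were counted is not given. No stretch of 50 bases in the linked transcripts of Mylpf, Tnnt3 and Tnni2 occurs in a GENCODE transcript of another gene, on either strand. For Acta1 the share of such stretches was 2.22%, and for Ckm it was 11.7%, with A930016O22Rik. For Myh4 and Myh8 it was 18.9% and 21.4%, with the highest shares to Myh1 (10.6%) for Myh4 and to Myh2 (11.8%) for Myh8, so their split is uncertain to that extent. Myl1 shared 23.4% with its pseudogene Mylf-ps. Tnnc2 shared 54.99% with transcripts of Ube2c, and Atp2a1 18.2% with Rabep2. Ube2c had 576 reads in the knockout and 308 in the wild-type library, where Tnnc2 had 0. Rabep2 had 278 reads in the knockout and 169 in the wild-type library. Ube2c and Rabep2 are given for these shared stretches. The implied lengths of Tnni2 and Tnnt3 exceed their linked transcripts, so part of the counted sequence may not have been searched. For Ckm the implied length is shorter than the transcript searched.

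The label of fast and developing skeletal muscle was checked against isoforms of the same proteins. Among the 6 myosin heavy chains compared, Myh8 held 61.9% of the summed FPKM in the knockout library and Myh1, the adult IIx chain, 33.5% at 1.24 FPKM, with 196 reads there and 0 in the wild-type library. Myh3, the embryonic chain, had 8 reads in the knockout and 0 in the wild-type library. Myh7, the slow and cardiac beta chain, had 3 reads in the knockout and 1 in the wild-type library, and Myh6, the cardiac alpha chain, had 0 in both. Myh2, the adult IIa chain, was not matched to a row and is not in these shares, nor are Myh13, with 13 reads in the knockout and 0 in the wild-type library, and Myh7b, with 9 in the knockout and 1 in the wild-type library, a pair chosen after their values were seen. A 0 of 22111605 reads does not show that a transcript was absent, and the floor of 3 reads lies below the exact 95% upper limit.

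**Figure D4:**
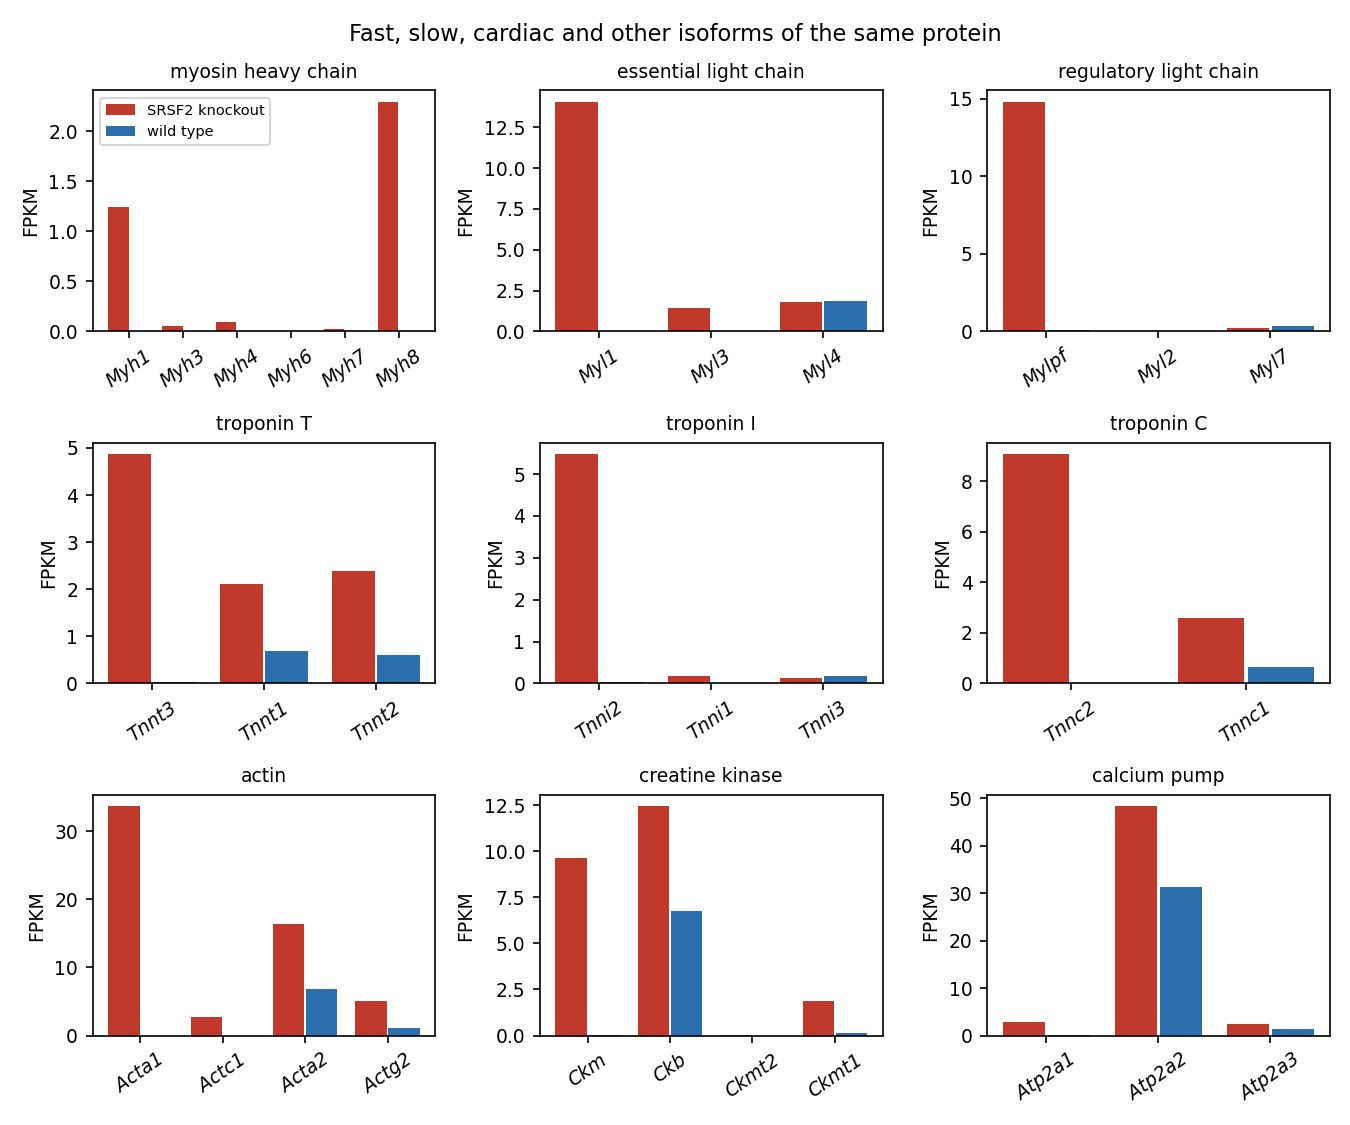
FPKM of isoforms of 9 protein families, in the SRSF2 knockout (red, left bar) and wild-type library (blue, right bar), 1 library each with no error bars. Fast skeletal isoforms such as Myl1, Mylpf, Tnni2 and Acta1 are seen in the knockout bars, whereas Myl4, Acta2, Ckb and Atp2a2 are seen in both libraries.

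In the knockout library the fast form Tnni2 held 94.5% of the troponin I FPKM, and Mylpf 98.4% of that of the regulatory light chains. Tnni1, slow troponin I, had 6 reads in the knockout and 0 in the wild-type library, and Tnni3, cardiac troponin I, 3 in the knockout and 4 in the wild-type library. Myl2, the slow and ventricular light chain, had 1 read in the knockout and 0 in the wild-type library, and Myl7, the atrial one, 3 in the knockout and 5 in the wild-type library. Troponin T was more mixed. Tnnt1, the slow form, stood at 2.11 FPKM in the knockout and 0.685 FPKM in the wild-type library, and Tnnt2, the cardiac form that developing skeletal muscle also makes, at 2.38 and 0.609 FPKM. Tnnc1, slow and cardiac troponin C, stood at 2.60 and 0.643 FPKM in the same order.

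The actin, creatine kinase and pump families also held isoforms seen in both libraries. Actc1 was not among these. Actc1, cardiac actin and also an actin of developing skeletal muscle, had 99 reads in the knockout and 0 in the wild-type library. The smooth muscle actins were found in both: Acta2 stood at 16.4 FPKM in the knockout and 6.79 FPKM in the wild-type library, and Actg2 at 5.08 and 1.18 FPKM. Ckb, the brain-type creatine kinase, stood at 12.4 FPKM in the knockout and 6.73 FPKM in the wild-type library, above Ckm in both libraries. Atp2a2, the SERCA2 pump found in most tissues, stood at 48.3 FPKM in the knockout and 31.3 FPKM in the wild-type library, 1.55-fold higher (1.49 to 1.60). Ckmt1, the ubiquitous mitochondrial creatine kinase, stood at 1.86 FPKM in the knockout and 0.142 FPKM in the wild-type library, and Atp2a3, the SERCA3 pump, at 2.49 and 1.43 FPKM in that order. Atp2a1 was 5.48% of the pump family's FPKM in the knockout and 0.201% in the wild-type library.

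Of 117 further muscle genes in 7 lists, 113 were matched in the tables. In the knockout library 109 of them had reads, and 37 of these 109 (33.9%) had 0 reads in the wild-type library. Over all genes with knockout reads the share with 0 wild-type reads was 11.2%. No listed gene had reads in the wild-type library alone, which was also rare over all genes, at 387 of the 17455 with wild-type reads. On the log2(FPKM + 1) scale 41 passed the filter, 20 of them at least 2-fold higher and 1 lower, beside 19.2% and 2.95% of all genes. After centring 8 were higher and 2 lower, beside 5.67% and 6.66%. Their median log2 ratio was 0.97, or 0.41 above that of all genes. Without a filter or pseudocount, the interval of the read ratio lay above 2 for 53 of the 109 with a read and below 1/2 for 2, beside 17.4% and 1.99% of the 19599 genes with a read in either library.

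**Figure D5:**
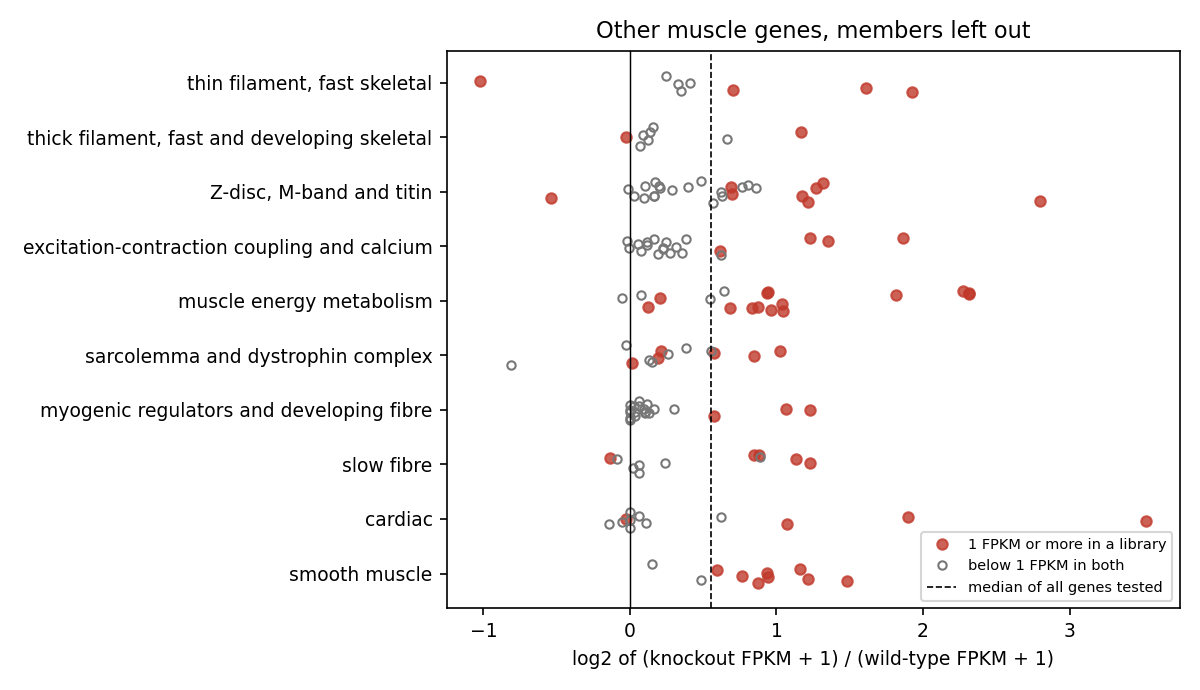
Log2 of (knockout FPKM + 1) over (wild-type FPKM + 1) for each listed gene outside the members, by list. Filled points have at least 1 FPKM in a library, open points are below it in both, and the dashed line is the median of all genes tested, 0.55. Most open points lie near 0 because the pseudocount of 1 exceeds their FPKM.

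Counts of each list below stand beside 19.2% of all genes at least 2-fold higher and 2.95% lower, or 5.67% and 6.66% after centring. In the thin filament list, 2 of 4 genes that passed were at least 2-fold higher and 1 lower. Tpm1, a tropomyosin made in many cell types, stood at 88.02 FPKM in the knockout and 22.5 FPKM in the wild-type library, 3.91-fold higher (3.67 to 4.18). Tpm2, beta-tropomyosin, stood at 5.38 and 1.09 FPKM in that order. Nrap, which anchors actin during myofibril assembly, went the other way at 3.73 FPKM in the knockout and 8.60 FPKM in the wild-type library, a ratio of 0.434 (0.392 to 0.480). Cfl2, a cofilin, stood at 12.9 FPKM in the knockout and 7.56 FPKM in the wild-type library. Neb, the nebulin ruler of thin filaments, had 193 reads in the knockout and 68 in the wild-type library and was chosen after its values were seen.

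In the thick filament list, 2 genes passed and Myh1 was at least 2-fold higher (0 genes after centring). Mybpc1, slow myosin-binding protein C, had 87 reads in the knockout and 0 in the wild-type library. Mylk2, a myosin light chain kinase, had 9 reads in the knockout and 0 in the wild-type library. Myl3, the slow and ventricular essential light chain from the slow fibre list, had 34 in the knockout and 1 in the wild-type library. Myl4, the light chain of atria and embryonic muscle, had 46 reads in the knockout and 48 in the wild-type library, a ratio of 0.970 (0.633 to 1.48). It was thus found in wild-type liver where no member passed 6 reads.

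Of the Z-disc and titin genes, 8 passed and 5 were at least 2-fold higher (after centring 1 higher and 1 lower). The read ratio interval lay above 2 for 19 of 26, beside 17.4% of all genes with a read. The gene lower after centring was Smyd1, with 49 reads in the knockout and 112 in the wild-type library, a ratio of 0.443 (0.310 to 0.625). Smyd1 was chosen after its values were seen. Fhl3, a LIM-domain protein, stood at 10.8 FPKM in the knockout and 0.700 FPKM in the wild-type library, 15.5-fold higher (10.9 to 22.7). Myom1, which links thick filaments at the M-band, stood at 1.85 FPKM in the knockout and 0.141 FPKM in the wild-type library. Pdlim3, a Z-disc protein, stood at 3.28 FPKM in the knockout and 0.773 FPKM in the wild-type library, and Fhl1, a LIM-domain protein, at 6.47 and 3.61 FPKM in that order. Ttn, the giant titin spring, had 354 reads in the knockout and 6 in the wild-type library, but only 0.126 and 0.00210 FPKM over its great length, and was chosen after its values were seen. Des, the intermediate filament desmin that smooth muscle also makes, stood at 6.71 FPKM in the knockout and 2.31 FPKM in the wild-type library.

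For excitation and calcium handling, 4 genes passed and 3 were at least 2-fold higher (1 after centring). Sln, sarcolipin, a small inhibitor of the SERCA pumps, had 36 reads (2.64 FPKM) in the knockout and 0 in the wild-type library. It was 12.1-fold higher against the floor of 3 reads, with an exact lower limit of 9.38. Casq1, the calcium store protein of fast fibres, stood at 1.67 FPKM in the knockout and 0.141 FPKM in the wild-type library. Tmem38a, a cation channel of the sarcoplasmic reticulum, stood at 3.35 FPKM in the knockout and 0.701 FPKM in the wild-type library. Pvalb, the calcium buffer of adult fast fibres, had 2 reads in the knockout and 0 in the wild-type library, a gene chosen after its values were seen.

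Of the energy genes, 14 passed and 6 were at least 2-fold higher (4 after centring). Cox6a2, the heart and muscle form of a cytochrome oxidase subunit, stood at 5.67 FPKM in the knockout and 0.343 FPKM in the wild-type library, 16.5-fold higher (7.33 to 46.1). Fbp2, muscle fructose bisphosphatase, stood at 5.98 and 0.408 FPKM, and Aldoa, an aldolase of muscle and many other cells, at 312.96 and 64.01 FPKM. Ckmt2, the sarcomeric mitochondrial creatine kinase, had 2 reads in the knockout and 0 in the wild-type library. In the sarcolemma list 6 genes passed and Itga7 alone was at least 2-fold higher, at 3.55 FPKM in the knockout and 1.24 FPKM in the wild-type library (0 after centring). Sgcb, a sarcoglycan, stood at 2.11 FPKM in the knockout and 0.728 FPKM in the wild-type library, and Bin1, which shapes T-tubule membranes, at 8.21 and 5.18 FPKM in that order. Capn3, a muscle calpain, had 8 reads in the knockout and 78 in the wild-type library, a ratio of 0.104 (0.0433 to 0.215).

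Myogenic regulators and genes of the developing fibre were sparse. Of 20 matched, 3 passed and 2 were at least 2-fold higher (0 after centring): Mef2d, at 12.5 FPKM in the knockout and 4.77 FPKM in the wild-type library, and Chrnb1, a subunit of the muscle acetylcholine receptor, at 1.76 and 0.316 FPKM. Mef2c, of the same family as Mef2d, stood at 2.02 FPKM in the knockout and 1.03 FPKM in the wild-type library. Pax3 and Pax7, factors of muscle progenitors, Mymx, a membrane fusion peptide, and Chrng, the fetal receptor subunit, had 0 reads in both libraries. Myog, a factor of differentiating muscle cells, had 9 reads in the knockout and 0 in the wild-type library and was chosen after its values were seen.

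Markers of other tissues were read in the same way, beside 19.2% of all genes at least 2-fold higher and 5.67% after centring. Among 12 cardiac markers, Myh6, Nkx2-5 and Hcn4 had 0 reads in both libraries, 3 of 4 that passed were at least 2-fold higher (2 after centring), and the list summed to 20.4 FPKM in the knockout and 3.17 FPKM in the wild-type library. Most of the knockout sum was Ankrd1, a stress-induced factor of muscle and other cells, at 12.5 FPKM in the knockout and 0.171 FPKM in the wild-type library. All 10 smooth muscle markers had reads in both libraries. They summed to 53.6 FPKM in the knockout and 23.01 FPKM in the wild-type library, with 3 of the 8 that passed at least 2-fold higher (0 after centring). The interval of their read ratio lay above 2 for 8 of 10 and below 1/2 for 0, beside 17.4% and 1.99% of all genes with a read. Tagln, an actin-binding protein of smooth muscle, stood at 14.3 FPKM in the knockout and 8.03 FPKM in the wild-type library. The slow fibre list, on which the abundant Tpm3 stands, summed to 101.7 and 54.8 FPKM, with 2 of 5 at least 2-fold higher (0 after centring). Myoz2, a Z-disc protein of slow fibres and heart, had 30 reads in the knockout and 0 in the wild-type library, and Csrp3, a LIM protein of muscle, 48 in the knockout and 56 in the wild-type library.

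Transcripts of the acinar pancreas were also higher in the knockout library, as were 84.5% of all genes that passed. Of 17 markers, 16 passed and 15 were at least 2-fold higher, also after centring, beside 19.2% and 5.67% of all genes. The markers summed to 1061 FPKM in the knockout and 41.9 FPKM in the wild-type library. Ctrb1, a chymotrypsinogen, stood at 235 FPKM in the knockout and 0.170 FPKM in the wild-type library. Clps, pancreatic colipase, stood at 105 FPKM in the knockout and 0.153 FPKM in the wild-type library, and Cela2a, an elastase, at 131 and 4.59 FPKM in that order. The wild-type sum was mostly Pnliprp1, at 109 FPKM in the knockout and 33.3 FPKM in the wild-type library. Cel, a lipase, had 3539 reads in the knockout and 0 in the wild-type library. Their part in the muscle values was not tested.

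Of 10 adipocyte markers, 1 passed, Pparg, at 13.7 FPKM in the knockout and 6.10 FPKM in the wild-type library. Plin1, a lipid droplet protein, had 49 reads in the knockout and 0 in the wild-type library, Cidea 27 in the knockout and 2 in the wild-type library, and Retn 0 in both. Of 10 tendon and cartilage markers, 8 had reads. Fmod, a collagen-binding matrix protein, had 315 reads in the knockout and 107 in the wild-type library, 2.98-fold higher (2.39 to 3.75). Thbs4, a thrombospondin, had 33 reads in the knockout and 3 in the wild-type library, a ratio of 11.1 (3.49 to 56.7). Mkx, a tendon transcription factor, went the other way, with 6 reads in the knockout and 36 in the wild-type library. Tnmd, a tendon marker, and Matn1, a cartilage marker, had 0 reads in both libraries.

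Of 8 epidermis markers, 3 passed and 2 were at least 2-fold higher, also after centring. These were the basal keratins Krt5, with 334 reads (5.83 FPKM) in the knockout and 0 in the wild-type library, and Krt15, with 112 reads (2.48 FPKM) in the knockout and 0 in the wild-type library. Krt10, a keratin of upper layers, stood at 1.40 FPKM in the knockout and 0.316 FPKM in the wild-type library. Mesothelium markers summed to 27.3 FPKM in the knockout and 5.42 FPKM in the wild-type library, with 3 of 5 that passed at least 2-fold higher (1 after centring). Most of that knockout sum was Krt19, which is also a bile duct keratin, at 15.8 FPKM in the knockout and 1.86 FPKM in the wild-type library. Upk3b stood at 4.22 FPKM in the knockout and 1.59 FPKM in the wild-type library, Upk1b at 2.17 and 0.407, and Msln at 3.12 and 1.29 in the same order. The part of these markers in the muscle values was not tested. Hepatocyte markers were mostly lower, with 7 of 12 at least 2-fold lower (10 after centring), beside 2.95% of all genes (6.66% after centring). Apoa2 and Cps1 went the other way, at 7630 and 599 FPKM in the knockout and 6767 and 515 FPKM in the wild-type library. Both were chosen after their values were seen. Fga, a fibrinogen chain, stood at 627 FPKM in the knockout and 2550.3 FPKM in the wild-type library, Fgg at 974 and 3816, and Fgb at 1445 and 4868 in that order. Ahsg, a plasma glycoprotein, stood at 11956 and 26610.5 FPKM and Trf, transferrin, at 7809 and 19368 FPKM in that order.

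With only 2 libraries, likeness to the members comes down to a similar ratio, taken here on the log2(FPKM + 1) scale that understates differences of low genes. The 8 genes with at least 10 knockout FPKM whose log2 ratio lay nearest to the member median of 3.33 were S100g, Ccn1, Tubb2a, Ccl2, Lgals1, Snhg12, Acot1 and Rcc1, at distances of 0.00136 to 0.0601 on the log2 scale. None stands on a muscle list, though few genes of those lists reached 10 knockout FPKM. The wild-type reads of these 8 genes ran from 10 for Ccl2 to 932 for Tubb2a, beside 0 to 6 for the members. Nothing is read from that contrast, since the members were picked as near 0 in wild-type liver. At a given ratio, a higher knockout level also brings a higher wild-type level. A knockout level of at least 1 FPKM with 0 wild-type reads was found for 100 genes, of which 4 were members: Acta1, Myl1, Tnnc2 and Myh8.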

How the data were processed

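The genotype label set the groups, 1 SRSF2 knockout and 1 wild-type liver library. RNA came from frozen liver by Trizol extraction, and libraries followed Illumina procedures, per the labels' protocols. The submitters' processing notes name Bowtie 0.12.2 and build mm9. Not given in the sources used here are the counting program, its treatment of strand and of reads with several matches, and whether animals were pooled. Each of 26449 RefSeq accessions has a deposited read count and the authors' FPKM, per the file headers. Names came from a RefSeq table of GRCm38.p6 and from GENCODE M21 tables for 23419 accessions. Each member matched 1 accession. Reads and FPKM were summed per gene.

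A pseudocount of 1 was added to FPKM, and the log2 ratio of knockout over wild type was taken for genes reaching 1 FPKM in either library, called at 2-fold. Folds are FPKM ratios. Their 95% limits are Clopper-Pearson limits of the reads' split between libraries, turned into a ratio and multiplied by 1.012, the quotient of what 1 read is worth in FPKM. Folds over 0 reads use a floor of 3 wild-type reads in that library. With 1 library per genotype no p-value was computed. Members and lists were chosen with earlier results of these data known. Genes named were the members, their isoform families, of each list the 3 largest absolute ratios, the 3 most abundant genes and markers at 0, the 8 genes nearest in ratio, and Srsf2. Others are said to be chosen after their values were seen. Xist, Ube2c and Rabep2 fall outside this rule. The result of the peripheral nerve list is not reported here. The interval rule and the linked transcript lengths were added after the data were seen. Computations were tested on simulated data. Limits came from scipy 1.17.1, figures from matplotlib 3.10.9, and tables from pandas 2.3.3 with numpy 2.4.6 under Python 3.11.15.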

Additional observations from a re-analysis of the deposited data

How the results depend on the processing

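No paired analysis was possible because there is 1 library per genotype and the labels carry no replicate number, so no library could be left out either. The members that passed the filter kept their direction under every setting run. They had passed through the knockout library alone and so had to be higher there, and nothing is read from this. Centring turned Myh4, which did not pass, to -0.42 from 0.13 on the log2 scale and the sarcolemma list's median to -0.16 from 0.40, and the whole table to 708 higher and 831 lower, in place of 2396 and 368. The members at least 2-fold higher numbered 9, and 6 with a pseudocount of 5, 6 of 6 with a filter of 5 FPKM, 7 at a 4-fold size and 10 under the interval rule. Their median log2 ratio of 3.33 was 6.26 with a pseudocount of 0.1, 1.49 with 5, 3.61 with a filter of 5 FPKM, 4.47 in TPM, 2.78 after centring, 3.82 in RPM and 3.31 with linked lengths. Of the further muscle genes, 20 of 41 tested were at least 2-fold higher, and of the same 41 it was 4 with a pseudocount of 5, 8 after centring, 31 at 1.5-fold and 4 at 4-fold. Where the number tested also changed, it was 9 of 14 with a filter of 5 FPKM, 37 of 58 in TPM, 45 of 70 in RPM and 53 of 113 under the interval rule. The 2396 genes of the whole table numbered 3797 with a pseudocount of 0.1, 786 with 5, 3628 in TPM, 1297 when rescaled without the 20 most abundant genes, 3870 in RPM, 5914 at 1.5-fold and 344 at 4-fold. The share of Acta1 in the members' FPKM was 33.01% with linked lengths in place of 34.8%. Depth limits the wild-type side most: 13 reads over 10 genes give no order among the members there, and genes with 0 to 3 wild-type reads have ratios without a firm upper end.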
